A study of Mus musculus with 2 samples.

Results

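Cohesin, condensin and DNA topoisomerase II were followed through 10 genes in medulloblastoma cells of the mouse: the cohesin genes Smc1a, Smc3 and Rad21, the condensin genes Smc2, Smc4, Ncapd2, Ncapg and Ncaph, and the topoisomerase II genes Top2a and Top2b. The genes were taken by name, and all 10 were found among the 24858 genes of one library and the 19714 genes of the other. Both libraries came from tumour tissue of hGFAPcre;Ptchc/c mice, in which a GFAP promoter drives Cre and both Ptch alleles carry the change written as c. There was 1 Drop-seq library for postnatal day 12 (P12) and 1 for postnatal days 24 to 30 (P24-30), each from tissue digested with TrypLE and collagenase and freed of red blood cells. No control library was among the samples used, so every cell compared came from the same genotype, and the number of animals was not stated in the labels. Drop-seq isolates cells in droplets and tags each captured transcript with a cell barcode and a molecular barcode (UMI), so that transcripts are counted at their 3′ ends.

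Cohesin is a ring built on the SMC proteins Smc1a and Smc3 and closed by the kleisin Rad21. It holds sister chromatids together from S phase until anaphase and also folds chromatin into loops, in dividing and in resting cells. Condensin is built on Smc2 and Smc4, which condensin I and condensin II share, and it compacts chromosomes for mitosis. Ncaph is the kleisin of condensin I, and Ncapd2 and Ncapg are its HEAT-repeat subunits. Type II topoisomerases pass one DNA duplex through another. Top2a is the form of dividing cells, needed to disentangle sister chromatids, and Top2b is kept in neurons after they leave the cell cycle. Granule neuron progenitors of the cerebellum, from which this kind of medulloblastoma arises, divide under Sonic hedgehog and then become granule neurons.

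The P12 table held 6000 barcodes with a median of 1778 UMIs, of which 5722 were kept, and the P24-30 table held 4991 cells with a median of 2149, of which 4794 were kept. Doublet calling marked 0.0175% and 0.0417% of cells, too few for it to have worked, so doublets can remain in any class. Columns of the P24-30 table carry no barcodes, so barcodes shared between the libraries could not be counted. Ptch1 was at 156 CPM (UMIs scaled to 1000000 in the same cells) at P12 and 12.3 CPM at P24-30. A 3′ count need not report the deleted part of a gene, so this does not check the genotype. With 1 library per age no test was possible and no p-value is given. A difference is called by its size alone, at 2-fold between states and 1.5-fold between ages, and intervals in parentheses are exact 95% intervals of counting error only.

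States were read from marker genes. The P12 cells formed 12 clusters, with the 10 genes left out of the clustering, and 4 states were named: mitotic-like (1077 cells, with 18 of 18 mitotic markers raised), S-phase-like (1054 cells, 10 of 16 S-phase and histone markers), G1/S-like (497 cells, 14 of 18 licensing markers) and neuron-like (590 cells, 15 of 16 neuronal markers). Mitotic markers summed to 19512 CPM in the mitotic-like, 7218 in the S-phase-like, 1757 in the G1/S-like and 506 in the neuron-like cluster, so the S-phase-like cells also held mitotic transcripts. Other clusters are called by a leading gene (Spc25-led with 316 cells, Hist1h2bc/Ccnb2 with 203, Hes1-led with 1055 and Eln-led with 604) or were microglia-like (87), oligodendrocyte-like (106), mixed glial (55) or of low depth (78). Columns of the P24-30 table carry 16 tags, Hi_G1 to Hi_G16, that no label explains, and 14 of them held at least 50 kept cells. By the same markers G16 and G1 were mitotic-like, G2 S-phase-like, G3 G1/S-like and G11 to G14 neuron-like, while G10 (77 cells) had a median of 774 UMIs and was set apart. When the P24-30 cells were clustered, 56 of 124 cells of G11 fell in the neuron-like cluster. So did 110 of 208 in G12, 230 of 505 in G13 and 116 of 308 in G14. Most other cells of G11 to G14 lay in clusters given no state. S-phase markers summed to 10789 CPM in G1, 13114 in G2 and 1492 in G16, so G1 carried both programmes. Whether the 10 genes were used to make the tags was not stated, so levels by tag are a description.

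Promoters of 8 of the 10 genes were in the RefSeq promoter table (GRCm38.p6), and Smc4 and Rad21 had no entry. The 250 bases before each start were searched on both strands for the CCAAT box (CCAAT, or ATTGG on the other strand), for the cell-cycle homology region or CHR (TTTGAA, with TTCAAA as its other strand, and TTCGAA) and for a core that E2F factors bind (TTGGCGC and TTCGCGC, with their other strands). ATTGG and TTGGCGC can share letters. Among 32851 promoters 33.8% held a CCAAT box, 17.1% a CHR and 3.14% an E2F core. Top2a had 6 CCAAT and 4 CHR matches, where 2.79% of promoters had at least 3 CCAAT boxes and 0.219% at least 3 CHR matches. Ncapd2 had 3 CCAAT, 1 CHR and 1 E2F match, and Ncapg and Smc2 each had 1 CCAAT and 1 CHR match. Top2b had 2 CCAAT matches and Smc1a had 1, both without a CHR, and Smc3 and Ncaph had none of the 3 motifs. A match describes letters and is not a measured site. The sequences below are those of Top2a (chr11:99024190-99024439, - strand) and Ncapg (chr5:45669675-45669924, + strand), whose levels differed most between mitotic-like and neuron-like cells, and of Top2b (chr14:16364956-16365205, + strand) and Smc3 (chr19:53600146-53600395, + strand), whose levels differed by less than 1.5-fold, each with its matches in capitals.
Top2a: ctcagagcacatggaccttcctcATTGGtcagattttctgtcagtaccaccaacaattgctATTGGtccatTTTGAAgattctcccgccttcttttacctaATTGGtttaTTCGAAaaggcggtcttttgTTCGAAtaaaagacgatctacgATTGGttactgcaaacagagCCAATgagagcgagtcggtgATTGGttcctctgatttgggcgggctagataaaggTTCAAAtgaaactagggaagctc
Ncapg: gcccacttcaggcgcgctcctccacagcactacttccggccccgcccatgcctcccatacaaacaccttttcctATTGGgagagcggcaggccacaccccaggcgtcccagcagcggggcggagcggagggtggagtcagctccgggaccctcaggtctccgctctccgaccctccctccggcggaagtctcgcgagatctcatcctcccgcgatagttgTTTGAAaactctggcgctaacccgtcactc
Top2b: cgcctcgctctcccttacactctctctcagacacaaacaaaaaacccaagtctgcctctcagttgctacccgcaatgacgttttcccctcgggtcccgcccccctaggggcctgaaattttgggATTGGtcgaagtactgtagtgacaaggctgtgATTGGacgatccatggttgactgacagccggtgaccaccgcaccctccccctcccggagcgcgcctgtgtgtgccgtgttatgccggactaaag
Smc3: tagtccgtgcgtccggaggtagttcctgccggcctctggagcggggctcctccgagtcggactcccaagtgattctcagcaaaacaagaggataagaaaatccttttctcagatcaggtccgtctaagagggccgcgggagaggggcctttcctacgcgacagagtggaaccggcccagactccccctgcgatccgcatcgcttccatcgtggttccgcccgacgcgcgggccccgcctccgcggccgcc

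Between mitotic-like and neuron-like cells, 7 of the 10 genes were at least 2-fold higher in the mitotic-like cells at P12, against 13.1% of 8188 genes, and 0 were 2-fold lower, against 11.7%. Between the mitotic-like and neuron-like tags at P24-30, 7 were higher, against 6.72% of 8706 genes, and 0 lower, against 13.5%. In both libraries these were the 5 condensin genes, Top2a and Rad21. The median log2 ratio of the 10 was 2.69 at P12 and 2.67 at P24-30, beside -0.01 and -0.19 over all genes. Smc1a, Smc3 and Top2b stayed within 2-fold in both libraries.

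Both SMC genes of cohesin stayed within 2-fold between the named states. Smc1a (chrX:152016428-152062694, + strand; intervals on mm10 from GENCODE vM21) was at 869 CPM in mitotic-like, 945 in S-phase-like, 785 in G1/S-like and 550.3 in neuron-like cells at P12. Its mitotic-like over neuron-like ratio was 1.58 (1.43 to 1.74) at P12 and 1.73 (1.60 to 1.87) at P24-30. Smc1a was thus somewhat lower in neuron-like cells in both libraries. Smc3 (chr19:53600398-53645833, + strand), the other arm of the ring, was at 632 CPM in mitotic-like, 1046 in S-phase-like, 882 in G1/S-like and 670.5 in neuron-like cells at P12. It was highest in the S-phase-like cluster and near the neuron-like level in the mitotic-like one, with a ratio of 0.943 (0.860 to 1.03). With per-cell G2/M phase calls in place of the mitotic-like cluster that ratio was 1.20, on the other side of 1. At P24-30 Smc3 was at 432 CPM in G16, 577 in G1, 667 in G2, 584 in G3 and between 355 and 427 in the neuron-like tags, a mitotic-like over neuron-like ratio of 1.23 (1.12 to 1.34). With clusters of the P24-30 library in place of tags the ratio of Smc3 was 1.00, outside that interval. Of 13 neighbouring pairs of tags in the order of Smc3, all 13 had overlapping intervals. The S-phase-like over mitotic-like ratio of Smc3 was 1.66 (1.56 to 1.76) at P12 and 1.33 (1.24 to 1.43) at P24-30, above 1 in both libraries.

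Rad21 (chr15:51962240-51991747, - strand), the subunit that separase cleaves at anaphase, followed another order. It was at 845 CPM in mitotic-like, 444 in S-phase-like, 221 in G1/S-like and 181 in neuron-like cells at P12. At P24-30 Rad21 was at 760.0 CPM in G16, 609 in G1, 349 in G2, 245 in G3 and between 116 and 136 in the neuron-like tags. Mitotic-like cells thus had the highest Rad21 of these states in both libraries, by 4.66-fold (3.99 to 5.48) over neuron-like cells at P12 and 5.63-fold (4.94 to 6.43) at P24-30. None of the 10 genes was 2-fold apart between S-phase-like and mitotic-like cells, against 2.64% of genes higher and 2.14% lower at P12 and 2.35% and 2.49% at P24-30. Rad21 came nearest, at S-phase-like over mitotic-like ratios of 0.525 (0.488 to 0.565) and 0.507 (0.468 to 0.549). Transcripts for partners in 1 ring, Smc3 and Rad21, therefore lay on opposite sides of 1 in this comparison. Between the mitotic-like tags themselves, where 0 of the 10 were 2-fold apart (background 2.05% higher and 0.928% lower in G1 than in G16), Rad21 was at 0.801 (0.729 to 0.881) and Smc3 at 1.33 (1.20 to 1.49). Rad21 was thus higher in G16, and Smc3 in G1.

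**Figure D1:**
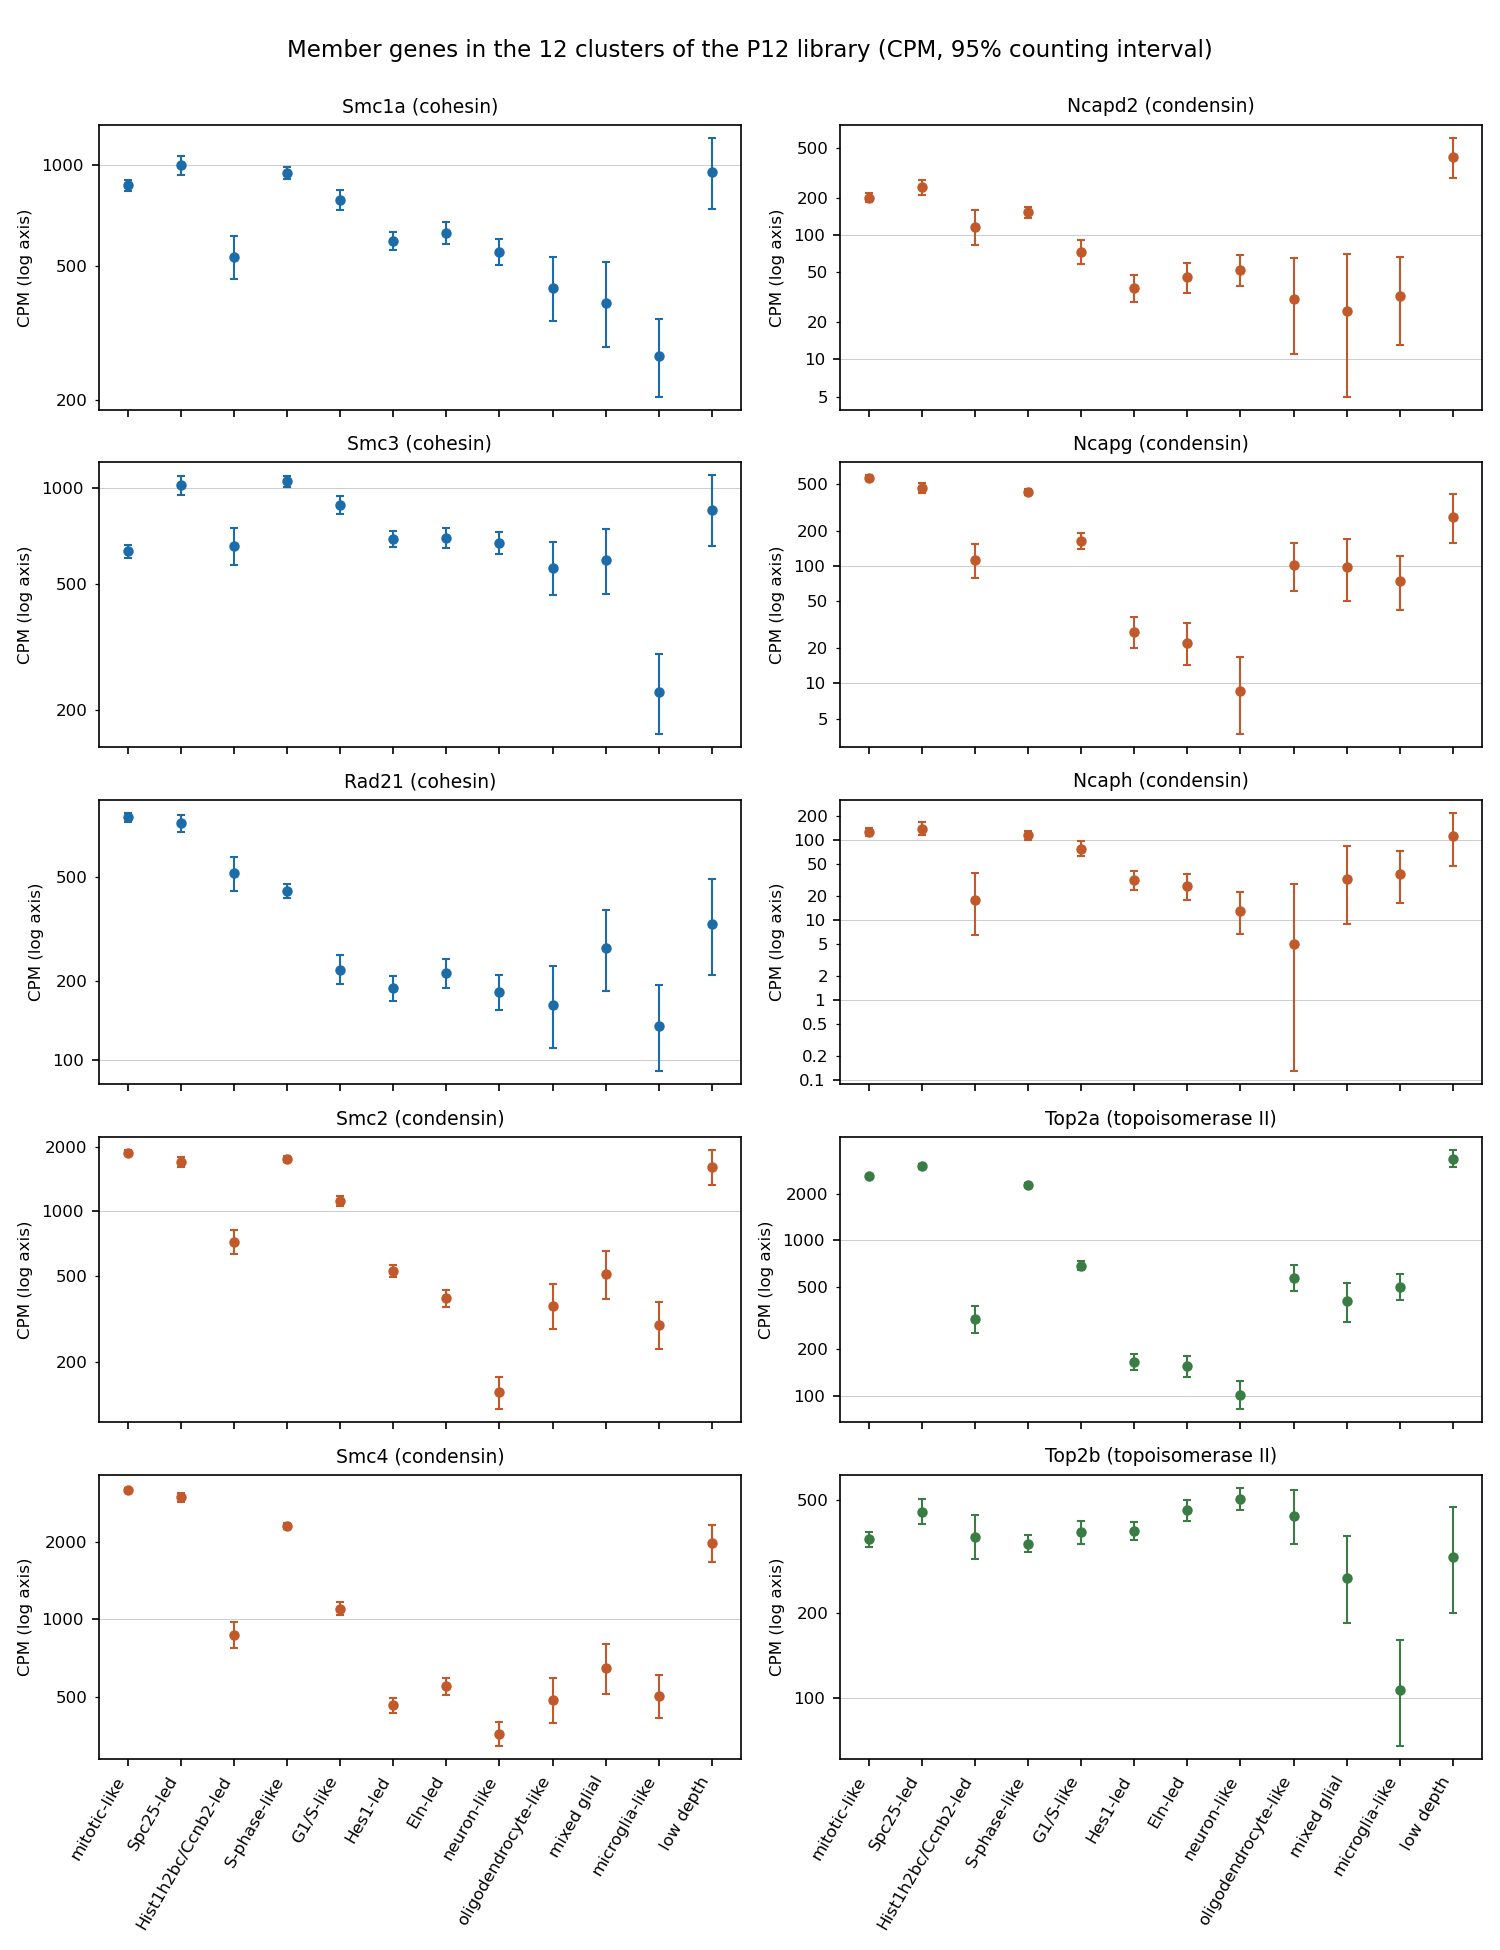
Level of each gene in the 12 clusters of the P12 library: CPM on a log axis, with its own scale in each panel, as points with 95% counting intervals. Top2a was at 2582 CPM in the mitotic-like and 102 in the neuron-like cluster, while Top2b was highest in the neuron-like cluster, at 507 CPM.

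Both condensin SMC genes were high in the dividing states and low in neuron-like cells. Smc2 (chr4:52439243-52488260, + strand) was at 1876 CPM in mitotic-like, 1750 in S-phase-like, 1118 in G1/S-like and 144 in neuron-like cells at P12. Smc4 (chr3:69004738-69034623, + strand) was at 3205 CPM in mitotic-like, 2310 in S-phase-like, 1101 in G1/S-like and 357 in neuron-like cells. One gene's CPM is not compared with another's here, since capture of 3′ ends was not measured for each gene. Smc2 was 13.1-fold (11 to 15.6) higher in mitotic-like than in neuron-like cells at P12 and 12.8-fold (11.4 to 14.4) at P24-30, and Smc4 8.97-fold (8.04 to 10) and 7.21-fold (6.53 to 7.98). Over the P24-30 tags Smc2 was at 1780 CPM in G16, 1763 in G1, 1366 in G2, 919.9 in G3, 736 in G6, 542 in G5, 443 in G7, 238 in G15 and 116 in G13. Of 13 neighbouring pairs in its order 6 had intervals that did not overlap, more than for any other of the 10 genes over these tags. Smc4 stood at 331 CPM (288 to 379) in G14, above the other neuron-like tags, which lay between 127 and 203 CPM. That tag was singled out after its value had been seen, and its largest cell held 8 of 210 Smc4 UMIs. Over its main-population cells, which leave out glial and low-depth clusters, G14 had 6 of 16 neuronal markers raised, and over all kept cells 3. Its oligodendrocyte markers summed to 2637 CPM over all kept cells, against 392 to 579 in the other neuron-like tags. Its vascular markers summed to 660 CPM, against 21.3 to 69.4. Of 11 oligodendrocyte markers 6 were raised over all kept cells of G14 and 0 over main-population cells, and of 10 vascular markers 6 and 4. G13, the lowest of the 4 in Smc4, held choroid plexus and ependyma markers at 17464 CPM, above its 11220 CPM of neuronal markers, where G11, G12 and G14 had 428, 289 and 2087 CPM of the former. Over all kept cells of G13 4 of 5 of these markers were raised, and over its main-population cells 0 were. Without glial, immune, vascular and low-depth cells the mitotic-like over neuron-like ratio of Smc4 at P24-30 was 6.89, beside 7.21 with them. The part of these other cells in the Smc4 level of each tag was not tested.

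Condensin I subunits differed between states to unequal extents. Ncapg (chr5:45669919-45700546, + strand) was at 562 CPM in mitotic-like, 426 in S-phase-like, 163 in G1/S-like and 8.58 in neuron-like cells at P12, the last on 8 UMIs. Its mitotic-like over neuron-like ratio was 65.5 (33.1 to 152) at P12 and 53.8 (29.1 to 113) at P24-30, the largest of the 10 in both libraries, and 85.6 at P24-30 with clusters in place of tags. The 3′ end of Ncapg overlaps Lcorl on the other strand, and the sources used here do not say whether strand was used in counting. Ncaph (chr2:127103809-127133954, - strand) was at 124 CPM in mitotic-like, 113 in S-phase-like, 77.4 in G1/S-like and 12.9 in neuron-like cells, and its ratios were 9.67 (5.46 to 18.9) and 10 (6.40 to 16.4). It had no UMI in G11, where a floor of 3 counts stands at 15.6 CPM. Ncapd2 (chr6:125168007-125191701, - strand) was at 199 CPM in mitotic-like, 153 in S-phase-like, 73.7 in G1/S-like and 52.6 in neuron-like cells. Its ratios, 3.79 (2.83 to 5.19) and 5.50 (4.34 to 7.04), were the smallest among the condensin genes in both libraries.

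The topoisomerase II genes ran apart. Top2a (chr11:98992943-99024189, - strand) was at 2582 CPM in mitotic-like, 2279 in S-phase-like, 689 in G1/S-like and 102 in neuron-like cells at P12. At P24-30 Top2a was at 1418 CPM in G16, 1844 in G1, 1221 in G2, 473 in G3 and between 33.2 and 99.1 in the neuron-like tags. It was 25.3-fold (20.7 to 31.4) higher in mitotic-like than in neuron-like cells at P12 and 35.9-fold (29.3 to 44.4) at P24-30, second to Ncapg among the 10. Without glial, immune, vascular and low-depth cells the P24-30 ratio was 56.5. Top2b (chr14:16365179-16435462, + strand; its end overlaps Rarb on the other strand) was at 365 CPM in mitotic-like, 352 in S-phase-like, 386 in G1/S-like and 507 in neuron-like cells at P12. Its mitotic-like over neuron-like ratio was 0.718 (0.644 to 0.803) at P12 and 0.822 (0.730 to 0.926) at P24-30. Top2b was the 1 gene of the 10 whose interval lay below 1 in both libraries. Over the P24-30 tags Top2b was between 257 and 271 CPM in the neuron-like tags and between 196 and 252 CPM in the 9 others with at least 50 cells besides G10, although neighbouring values had overlapping intervals. G10 stood at 2072 CPM, but 119 of its 140 Top2b UMIs came from 1 cell, 7.15% of that cell's 1665 UMIs, and no other cell there had more than 9. Without that cell G10 was at 319 CPM.

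**Figure D2:**
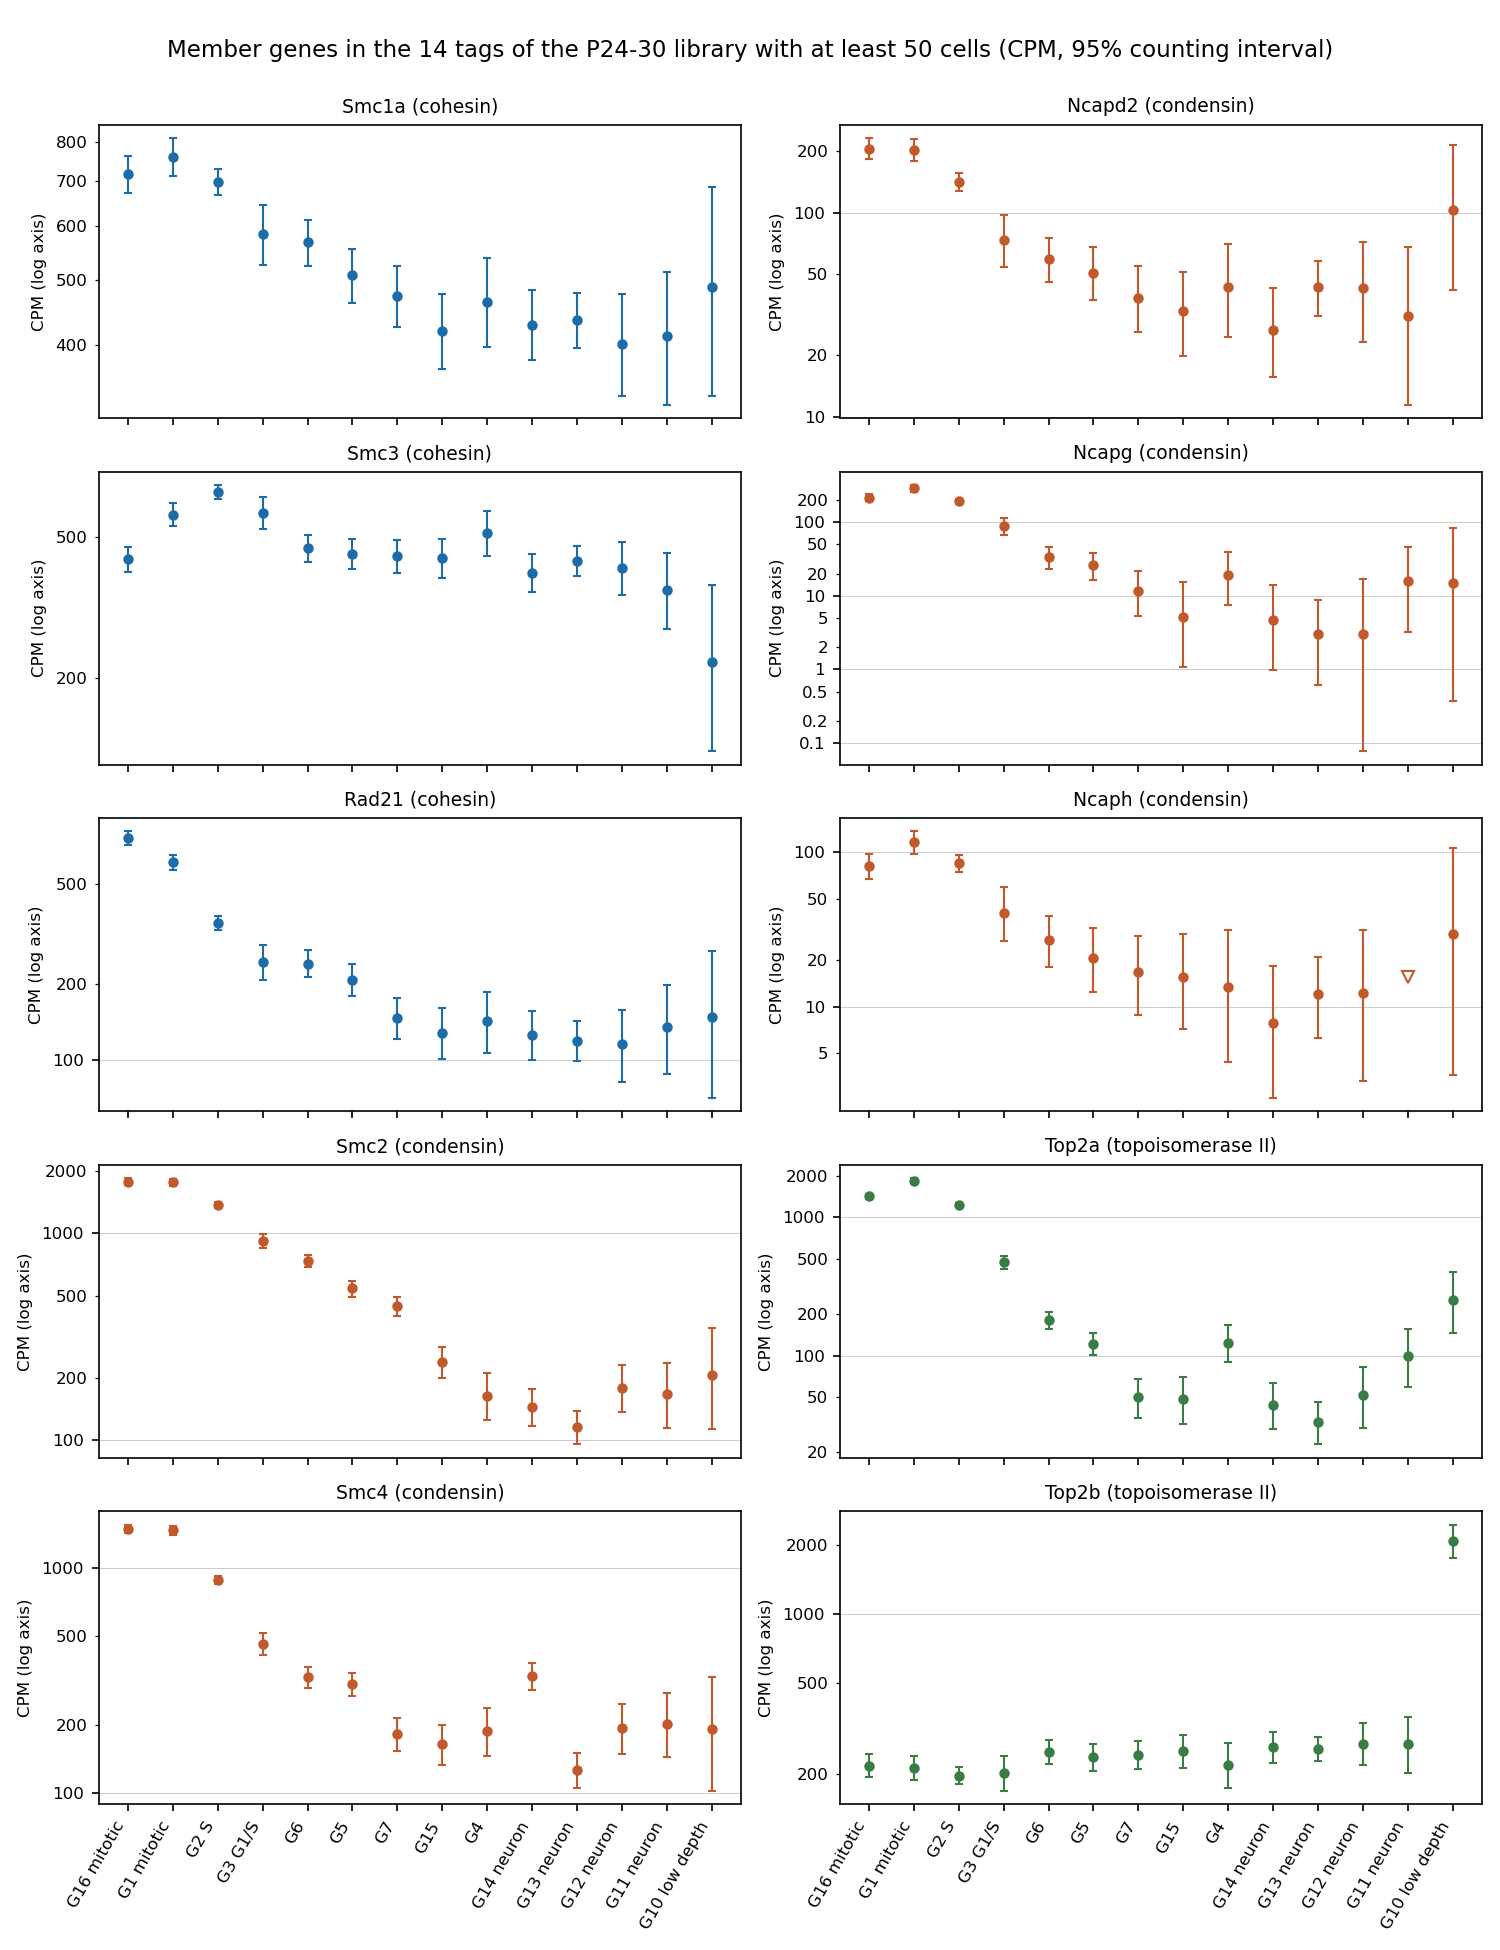
Level of each gene in the 14 tags of the P24-30 library with at least 50 kept cells: CPM on a log axis, with its own scale in each panel, as points with 95% counting intervals. An open triangle marks the limit for Ncaph in G11, which had no UMI, and the Top2b value of 2072 CPM in G10 came mostly from 1 cell.

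Between S-phase-like and G1/S-like cells, 5 of the 10 genes were 2-fold higher and 0 lower at P12 (background 2.73% and 1.32%), and 3 were higher and 0 lower at P24-30 (background 4.04% and 1.16%). At P12 these were Top2a at 3.31-fold (3.06 to 3.57), Ncapg at 2.61-fold (2.23 to 3.09), Smc4 at 2.10-fold, Ncapd2 at 2.08-fold and Rad21 at 2.01-fold. At P24-30 they were Top2a at 2.58-fold (2.29 to 2.91), Ncapg at 2.14-fold (1.63 to 2.87) and Ncaph at 2.09-fold (1.39 to 3.27). Top2a had the largest ratio in both libraries. G1/S-like cells in turn stood 2-fold above neuron-like cells for 5 genes and below for 0 at P12 (background 13.4% and 12.6%), and above for 6 and below for 0 at P24-30 (background 5.41% and 14.1%). Those shared were Smc2, Smc4, Ncapg, Ncaph and Top2a, and Rad21 was the sixth at P24-30, at 2.00-fold (1.63 to 2.45) against 1.22-fold (0.997 to 1.49) at P12. Smc2 was 7.78-fold (6.5 to 9.37) and 6.64-fold (5.76 to 7.65) higher in G1/S-like than in neuron-like cells. Ncapg was 19-fold (9.43 to 44.7) and 19.1-fold (9.69 to 42.0) higher. Ncapd2 was at 1.40 (0.970 to 2.04), an interval that spanned 1, and 1.97 (1.35 to 2.86). Of the 5 condensin genes 4 thus passed 2-fold in G1/S-like cells in both libraries, as did Top2a, in cells whose summed mitotic markers at P12 were 1757 CPM.

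**Figure D3:**
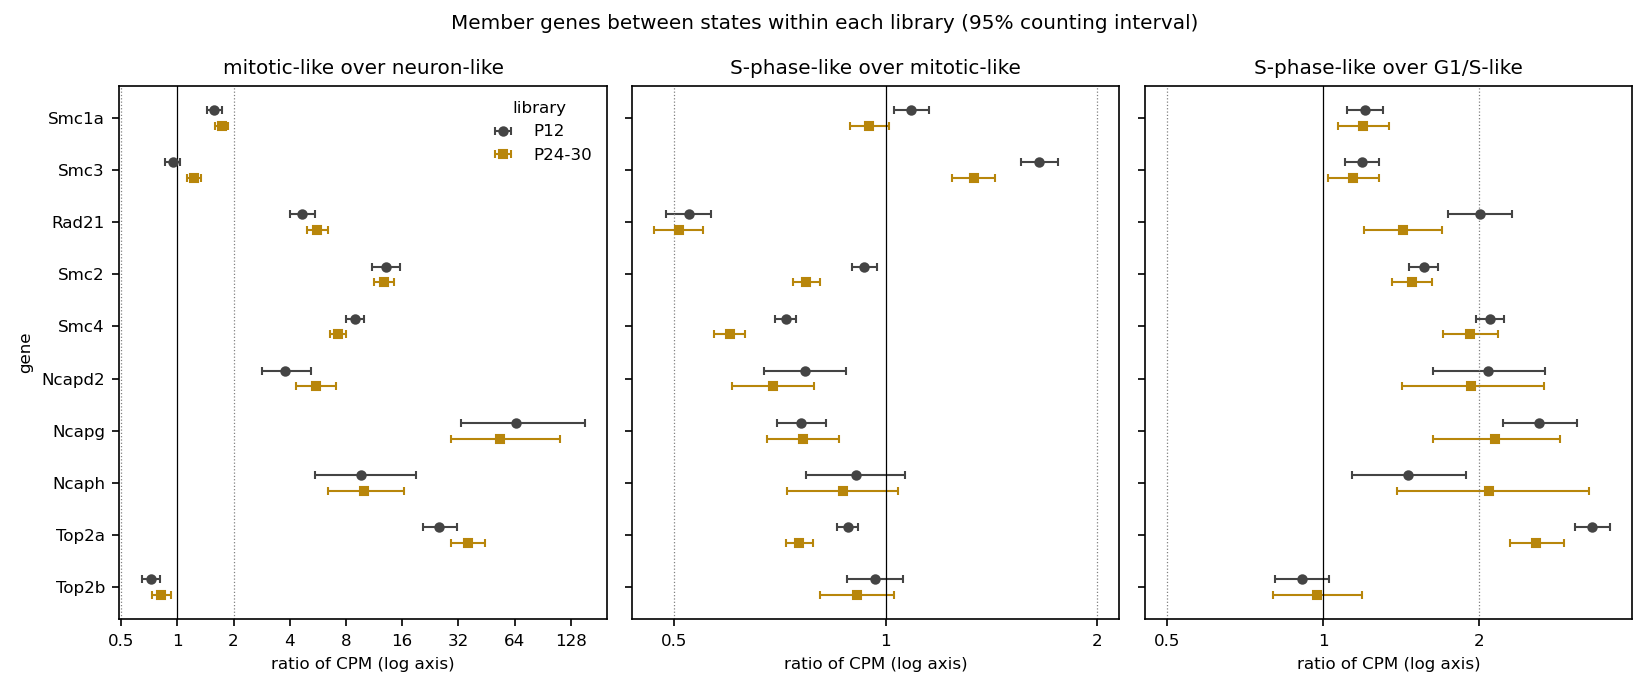
Ratio of CPM between states for each gene on a log axis, for both libraries, with 95% counting intervals; dotted lines mark 2-fold. Ncapg and Top2a had the largest mitotic-like over neuron-like ratios (65.5 and 25.3 at P12), Smc3 lay above and Rad21 below 1 in S-phase-like over mitotic-like cells, and Top2b lay below 1 in the first panel.

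Part of this pattern was seen in 2 large P12 clusters that were given no state. Their mitotic markers summed to 942 CPM in the Hes1-led and 719 in the Eln-led cluster, and their licensing markers to 2044 and 2313 CPM, between 475 in neuron-like and 4982 in G1/S-like cells. The Hes1-led cluster, with raised Hes1 and Atoh1, was 2-fold above the neuron-like cluster for 3 of the 10 genes and below for 0 (background 12.0% and 9.98%). The Eln-led cluster was above for 3 and below for 0 (background 6.41% and 5.85%). In both the genes were Smc2, Ncapg and Ncaph, with Ncapg resting on 47 and 25 UMIs and Ncaph on 54 and 30. Smc2 was at 528 CPM in the Hes1-led cluster, 3.67-fold (3.06 to 4.44) above the neuron-like level, while its partner Smc4, at 462 CPM, was 1.29-fold (1.14 to 1.47) above. In the Eln-led cluster Smc2 was 2.74-fold (2.25 to 3.35) and Smc4 1.53-fold (1.34 to 1.76) above. Smc2 was thus further above the neuron-like level than Smc4 in both of these clusters. Top2a was 1.63-fold (1.29 to 2.08) and 1.52-fold (1.18 to 1.97) above, and Ncapd2, at ratios of 0.712 (0.483 to 1.06) and 0.871 (0.578 to 1.31), had intervals that spanned 1.

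A cluster with Hist1h2bc and Ccnb2 among its leading genes, singled out in each library after its values had been seen, held fewer mitotic transcripts and less Top2a than mitotic-like cells. At P12 its mitotic markers summed to 7986 CPM, against 19512 in the mitotic-like and 7218 in the S-phase-like cluster, and 1 of 18 was raised 2-fold over the other cells. Top2a was at 311 CPM there against 2582 in the mitotic-like cluster, a ratio of 0.120 (0.0984 to 0.146). Of the 10 genes 5 were 2-fold lower and 0 higher than in mitotic-like cells (background 9.55% and 1.89%): Top2a, Ncaph at 0.141 (0.0515 to 0.311), Ncapg at 0.198 (0.140 to 0.273), Smc4 at 0.272 (0.241 to 0.305) and Smc2 at 0.386 (0.338 to 0.438). Rad21 was at 0.610 (0.521 to 0.711) and Smc1a at 0.611 (0.522 to 0.710), within 2-fold, and the intervals of Smc3 at 1.04 (0.900 to 1.19) and Top2b at 1.02 (0.842 to 1.23) spanned 1. Clustering of the P24-30 cells gave a cluster of 270 with the same pair among its leading genes, behind the centromere gene Cenpa and with 3 of 18 mitotic markers raised. There Top2a was at 153 CPM against 1573 in the mitotic-like clusters (731 cells), a ratio of 0.0972 (0.0776 to 0.120). At P24-30 6 were 2-fold lower and 0 higher (background 7.95% and 1.41%), the same 5 and Ncapd2 at 0.443 (0.326 to 0.592), which had been at 0.588 (0.415 to 0.811) at P12. Rad21 was at 0.669 (0.585 to 0.763), Smc3 at 0.919 (0.800 to 1.05) and Top2b at 0.913 (0.737 to 1.12). In both libraries these cells had lower Top2a and lower levels of at least 4 condensin genes than mitotic-like cells, with cohesin and Top2b nearer the mitotic-like level. They did not lack these transcripts. At P12 Top2a was at 311 CPM against 102 in neuron-like cells, Smc2 at 724 against 144 and Smc4 at 870 against 357. Ncapg was at 111 CPM against 8.58, and Ncaph at 17.6 against 12.9, on 6 and 12 UMIs. The mitotic markers as a whole were lower too at P12, and their part in the condensin and Top2a values was not tested.

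The P12 Spc25-led cluster held mitotic transcripts and a higher sum of neuronal markers than the mitotic-like cluster. Its mitotic markers summed to 14712 CPM and its neuronal markers to 8116, beside 3146 in the mitotic-like and 20433 in the neuron-like cluster. This cluster had 8 of 18 mitotic, 1 of 16 neuronal and 4 of 5 erythroid markers raised 2-fold, the last summing to 614 CPM. It was 2-fold above the neuron-like cluster for 7 of the 10 genes and below for 0 (background 9.44% and 9.52%), the same 7 as in mitotic-like cells. None was 2-fold apart from the mitotic-like cluster (background 2.84% higher and 4.14% lower). Smc3 was 1.61-fold (1.48 to 1.75) and Top2b 1.25-fold (1.11 to 1.41) above the mitotic-like level there. Its median depth, 2508 UMIs, was the highest of the 12 clusters, and the part of doublets in these values was not tested. Smc1a and Ncaph had their highest P12 level in this cluster, at 996 CPM (930.1 to 1064) and 138 CPM (114 to 165). The low-depth cluster had the highest Top2a and Ncapd2, 3356 CPM (2948 to 3805) and 426 CPM (289.7 to 605), and the neuron-like cluster the highest Top2b. The other 5 genes were highest in the mitotic-like or S-phase-like cluster, and at P24-30 all but Top2b were highest in a mitotic-like or S-phase-like tag.

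Other genes of the machinery were taken from 6 lists of 42 symbols. Of 34 that reached 50 UMIs over mitotic-like and neuron-like cells at P12, 14 were 2-fold higher and 2 lower in the mitotic-like cells, against 13.1% and 11.7% of all genes. Of 34 at P24-30, 12 were higher and 1 lower, against 6.72% and 13.5%. These shares are the background of each list that follows, beside a median log2 ratio over all genes of -0.01 at P12 and -0.19 at P24-30, and lists of 2 to 11 genes were not compared with each other by a test. Of the genes that cleave or protect cohesin 4 of 4 were higher at P12 and 3 of 4 at P24-30, with a median log2 ratio of 4.49 at P12 and 5.0 at P24-30. The shugoshin Sgol2a, which shields cohesin from separase, was 36.7-fold (23.7 to 60.2) higher at P12 and, listed as Sgol2, 48.1-fold (29.4 to 84.5) at P24-30. Sgol1, the other shugoshin, was 20.9-fold (13 to 36.0) and 37.7-fold (21.4 to 73.4) higher, and Espl1, separase itself, 24.1-fold (10.2 to 74.7) and 27.2-fold (11.4 to 84.8). Pttg1, securin, was at 4.22-fold (2.22 to 9.01) at P12 and 0.656-fold (0.437 to 0.979) at P24-30, on opposite sides of 1. Of 5 genes listed as condensin II subunits or as regulators of condensin, 4 were higher at P12 and 5 at P24-30, and the median log2 ratio was 1.60 at P12 and 1.48 at P24-30. The highest were Kif4, a kinesin that binds chromosomes, at 30.7-fold (14.8 to 76.7) and 36.2-fold (17.4 to 90.9), and Ncapg2, the condensin II counterpart of Ncapg, at 6.76-fold (3.35 to 15.9) and 7.07-fold (3.88 to 14.1). The lowest were Mcph1 at 1.73-fold and Ncapd3 at 2.68-fold at P12, and Ncaph2 at 2.42-fold and Mcph1 at 2.56-fold at P24-30.

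Of the genes that load, release or establish cohesin 3 of 11 were higher and 2 lower at P12 and 3 higher and 1 lower at P24-30 (background 13.1% and 11.7%, then 6.72% and 13.5%), with a median log2 ratio of 0.52 at P12 and 0.64 at P24-30. Esco2, the acetyltransferase that locks cohesin onto replicated DNA, was 30.8-fold (16.7 to 64.5) and 41.1-fold (23.9 to 77.6) higher in mitotic-like cells. Cdca5, sororin, had 145 UMIs in mitotic-like and 0 in neuron-like cells at P12. That is a ratio of 15.9 with the 0 set to 3 counts, and the exact interval of the ratio began at 12.8. Cdca5 was 29.1-fold (9.69 to 143) higher at P24-30. Ddx11, a helicase of cohesion, was 16.6-fold (5.57 to 81.3) higher at P12 on 3 neuron-like UMIs, and 3.42-fold (2.08 to 5.88) at P24-30 on 20. The lowest were Esco1, the acetyltransferase active outside S phase, at 0.388-fold (0.298 to 0.507) and 0.481-fold (0.326 to 0.704), and the loader subunit Mau2 at 0.473-fold (0.365 to 0.616) and 0.734-fold (0.583 to 0.922). The paralogues Esco2 and Esco1 thus lay on opposite sides of 1 in both libraries. Of the core relatives Stag1 and Stag2 reached 50 UMIs, with Stag1 at 1.69-fold and 1.82-fold and Stag2 at 1.30-fold and 1.32-fold. None of the 7 genes of SMC5/6 and other SMC complexes was 2-fold apart in either library, and their median log2 ratio was 0.50 at P12 and 0.80 at P24-30. The highest of them were Smc6 at 1.99-fold and Nsmce2 at 1.57-fold at P12 and Smc6 at 1.99-fold and Nsmce4a at 1.92-fold at P24-30. The lowest were Ndnl2, another symbol of Nsmce3, and Smc5, at 1.10-fold and 1.28-fold at P12 and 1.03-fold and 1.26-fold at P24-30. Of 5 other topoisomerase and repair genes with 50 UMIs, 3 were higher at P12 and 1 at P24-30, with a median log2 ratio of 1.07 at P12 and 0.48 at P24-30. The highest were Tdp1, which frees topoisomerase from DNA ends, at 2.66-fold and 2.88-fold, and Topbp1 at 2.51-fold and 1.84-fold. The lowest were Top3b at 0.508-fold and Top1 at 1.39-fold at P12, and Top3b at 0.891-fold and Tdp2 at 1.34-fold at P24-30.

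Shares of cells with a UMI were compared with every cell thinned to 500 UMIs. Top2a was seen in 63.8% (60.8 to 66.7) of mitotic-like, 64.9% of S-phase-like, 28.4% of G1/S-like and 5.42% (3.74 to 7.57) of neuron-like cells at P12. At P24-30 Top2a was seen in 52.3% (48.7 to 55.9), 44.6%, 20.4% and 2.18% (1.42 to 3.21) of the same states. Without thinning, the mitotic-like and neuron-like shares were 88.4% and 12.2% at P12 and 90.1% and 6.46% at P24-30, and no cell of these states was too shallow to be thinned. Ncapg was seen in 21.5% (19.1 to 24.1) of mitotic-like and 0 of 590 neuron-like cells at P12, an exact interval of 0 to 0.623% after thinning (1.36% of these cells had a UMI without it), and in 10.9% (8.81 to 13.3) and 0.437% at P24-30. Microglia-like cells, which can divide themselves, showed Top2a in 14.9% (8.20 to 24.2) of 87 cells at P12, at a median depth of 2091 UMIs against 1446.5 in neuron-like cells. Smc4 was seen in 14.9% (8.20 to 24.2) of microglia-like and 16.4% (13.5 to 19.7) of neuron-like cells, with overlapping intervals. At P24-30 Top2a was seen in 10.7% and Smc4 in 7.14% of 56 microglia-like cells, against 8.47% of neuron-like cells for Smc4, at median depths of 2000 and 1687 UMIs. Microglia-like cells are not a type that lacks these genes, so the neuron-like UMIs of Top2a and Smc4 cannot be told apart here from free RNA of other cells, and the part of such RNA in the neuron-like levels and in ratios to them was not tested. Top2b was seen in 16.1% (13.9 to 18.4) of mitotic-like and 20.7% (17.5 to 24.2) of neuron-like cells at P12, against 5.75% of microglia-like cells, and in 11.1% (8.92 to 13.5) and 12.6% (10.7 to 14.6) at P24-30. Its intervals overlapped in both libraries, and without thinning the order was the reverse, 53.3% and 50.3% at P12 and 44.7% and 31.5% at P24-30.

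**Figure D4:**
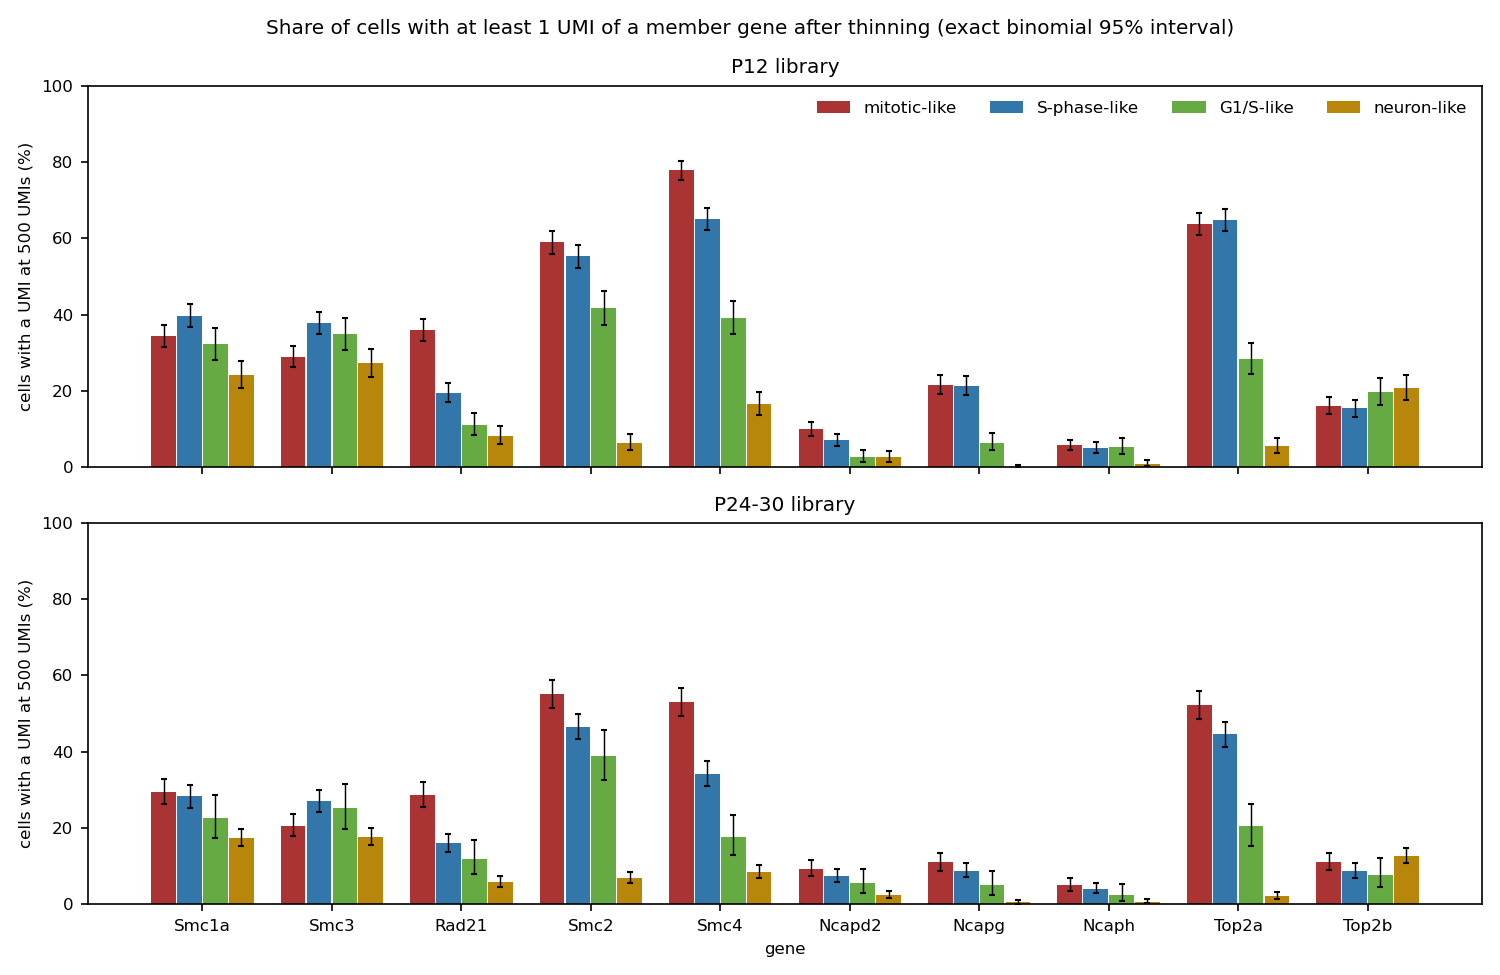
Share of cells with at least 1 UMI of each gene after thinning to 500 UMIs, as bars from 0 with exact binomial 95% intervals, for 4 states in each library. Smc4, Top2a and Smc2 were seen in 78.0%, 63.8% and 59.0% of mitotic-like P12 cells, while Smc3 ran from 27.3% in neuron-like to 37.8% in S-phase-like cells.

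Ages were compared over the main population, all clusters other than glial, immune, vascular and low-depth ones (5396 cells at P12 and 4395 at P24-30). Each ratio of P24-30 over P12 was divided by that of the median gene, whose own log2 ratio was -0.31. Smc4 was at 1807 CPM at P12 against 686 in the older library, a divided ratio of 0.469 (0.457 to 0.482). Ncapg was at 292 CPM at P12 against 114 in the older library, 0.483 (0.452 to 0.515), and Top2a at 1482 CPM at P12 against 727 in the older library, 0.606 (0.590 to 0.622). These 3 were 1.5-fold lower at P24-30, against 11.1% of 11150 genes, and 0 were higher, against 17.2%. The other 7 ranged from 0.708 (0.674 to 0.744) for Top2b to 1.03 (0.955 to 1.12) for Ncapd2. Without the division 6 of the 10 were 1.5-fold lower. Age, library and the way each table was made cannot be told apart. Ribosomal protein genes took 4.49% of UMIs at P12 and 13.6% at P24-30, and the part of that difference in the ratios was not tested. A scaling that leaves those genes out cannot change the ratios, because the division cancels it. Smc1a, which is X-linked, was at 0.942 (0.912 to 0.973), while Xist had 11432 UMIs at P12 and 21 at P24-30, and the part of that difference in the Smc1a ratio was not tested.

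Within single states between 1 and 3 of the 10 genes were 1.5-fold lower at P24-30, counts not far from the share over all genes given with each. Smc4 was among them in mitotic-like, S-phase-like and G1/S-like cells. Ncapg was among them in mitotic-like, S-phase-like and neuron-like cells, in the last on 10 and 8 UMIs. In mitotic-like cells 2 of the 10 were 1.5-fold lower and 0 higher at P24-30 (background 11.3% and 16.5%), Smc4 at 0.574 (0.553 to 0.597) and Ncapg at 0.557 (0.507 to 0.610), while Top2a was at 0.784 (0.755 to 0.814). In S-phase-like cells 2 were lower and 0 higher (background 11.2% and 17.6%), again Smc4 at 0.496 (0.472 to 0.520) and Ncapg at 0.581 (0.521 to 0.646). In G1/S-like cells 1 was lower and 0 higher (background 14.6% and 18.3%), Smc4 at 0.543 (0.476 to 0.617). In neuron-like cells 3 were lower and 0 higher (background 15.2% and 22.7%): Top2a at 0.518 (0.387 to 0.695), on 97 and 95 UMIs whose part of free RNA was not tested, Top2b at 0.604 (0.534 to 0.684) and Ncapg at 0.635 (0.226 to 1.85), the last on 10 and 8 UMIs. Smc4 there was at 0.669 (0.579 to 0.774). Smc2, the partner of Smc4 in every condensin, was at 1.18 (1.13 to 1.23) in mitotic-like, 1.01 (0.968 to 1.06) in S-phase-like, 1.07 (0.968 to 1.18) in G1/S-like and 1.13 (0.918 to 1.39) in neuron-like cells. In each of the 4 states the intervals of Smc2 and Smc4 lay apart. Cells of these states were P12 clusters on one side and P24-30 tags on the other, so they were not chosen alike.

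**Figure D5:**
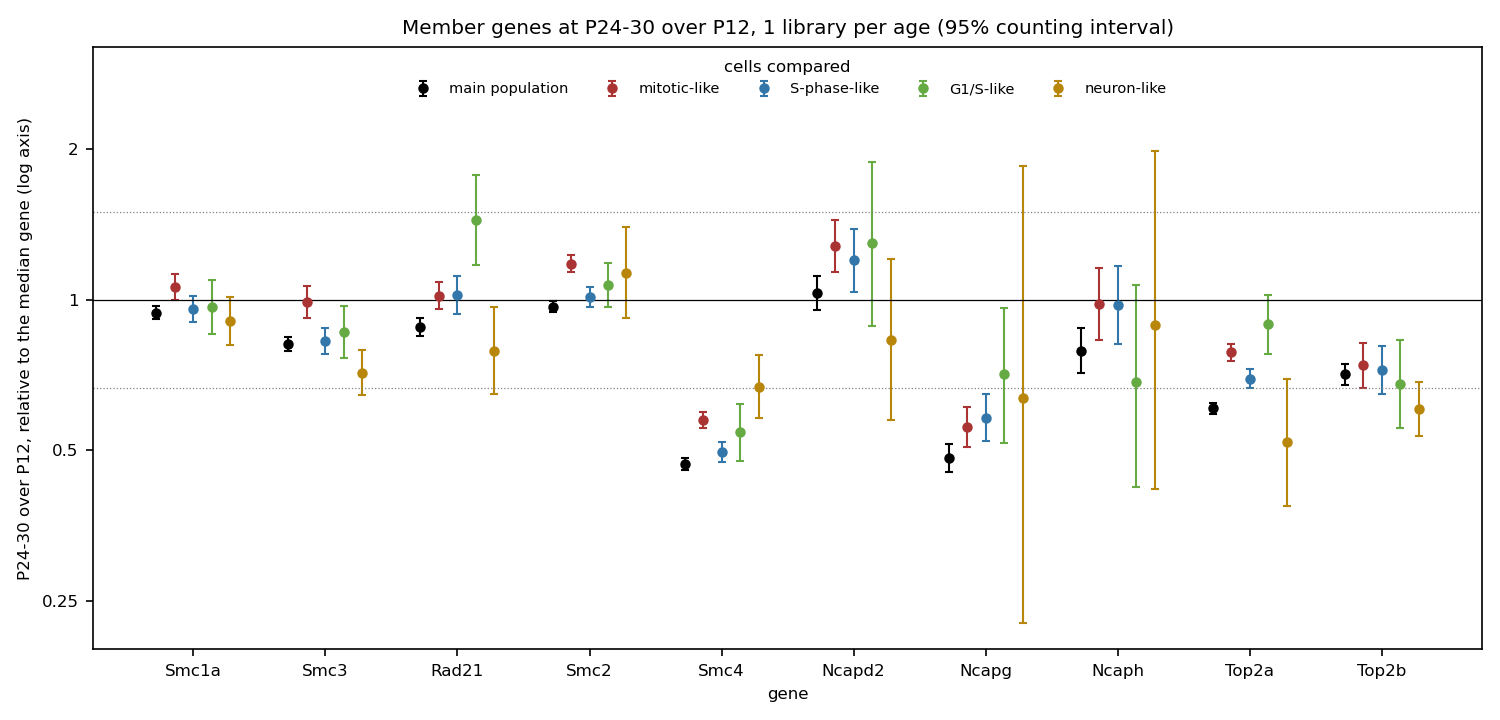
Ratio of P24-30 over P12 for each gene on a log axis, divided by that of the median gene, in the main population and in 4 states, with 95% counting intervals; dotted lines mark 1.5-fold. Smc4 and Ncapg lay below the lower line in the main population (0.469 and 0.483) and in mitotic-like cells, while Smc2 and Ncapd2 were at 0.968 and 1.03 in the main population.

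Genes whose levels ran most like 4 of the members were found by Pearson correlation of log2(CPM + 20) over the 12 P12 clusters and the 14 P24-30 tags. These are descriptions, since clusters of 1 library share its reads and depth. Top2a ran most like 2700099C18Rik, Neil3 and Incenp (r of 0.98 each) at P12 and Pbk, Spc25 and Birc5 (r of 0.98 each) at P24-30. Ncapg ran most like Ccna2, Ndc80 and Spc25 (r from 0.96 to 0.98) at P12 and Spc24, Ska1 and Aurkb (r of 0.98 each) at P24-30. Spc25, a kinetochore gene, was on 1 list of each. Smc3 ran most like Hnrnpdl, Gmps and Ccp110 (r of 0.94 each) at P12 and Cycs, Gm10053 and Gm10108 (r from 0.95 to 0.97) at P24-30. Top2b ran most like Slc39a6, Bcar1 and Gnl3l (r from 0.95 to 0.96) at P12. Its P24-30 neighbours, Atp6v1g2, Prr15l and Adamtsl1 (r of 0.99 each), rested on 1 cell of G10, and without it they were Ing4, Porcn and Dusp11 (r from 0.92 to 0.93). Among the members, Top2a and Ncapg correlated at 0.96 and 0.97, and Smc2 and Smc4 at 0.95 and 0.89. Smc3 and Top2b correlated at 0.77 over P12 clusters and at -0.84 over P24-30 tags (-0.93 without that cell). These signs were opposite, but the sets of points were not alike. The P12 points include the microglia-like cluster, the lowest of the 12 for both genes, at 228 CPM for Smc3 and 107 CPM for Top2b. Tag G8, whose 35 kept cells were all microglia-like, was not among the 14 P24-30 tags. The part of the microglia-like cluster in the difference of sign was not tested. In the last 500 bases of their transcripts Top2a shares 40-base stretches with Gm22358 and Gm25188, and Smc3 with Gm11204 and Gm29763, all listed in the tables, so reads of these could have been split between them.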

How the data were processed

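The deposited P12 table gives counts for each gene and 12-base barcode, and these were taken as UMIs. The deposited P24-30 table gives values on a natural log scale. Undoing the log and the scaling to 10000 UMIs per cell returned whole UMIs, within 0.001, for 100% of 6195642 values above 0. The submitters' processing notes name CASAVA and mm10, and no aligner, counter, annotation or way of choosing cells was given in the labels. The 10 genes and the gene lists were chosen with earlier results of these data known.

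A minimum of 500 UMIs left out 9 barcodes at P12 and 146 cells at P24-30, a maximum of 20% mitochondrial UMIs left out 268 and 49, and the doublet caller 1 and 2. Depth ran from 1 to 15050 UMIs per barcode at P12 and from 221 to 50361 at P24-30. Among P12 barcodes 85 had a neighbour 1 base away. Each library was clustered alone in scanpy 1.11.5 on 2000 variable genes without the 10 members (30 principal components, 15 neighbours, Leiden resolution 1, seed 1). Names came from 14 marker lists: a state needed a mean log2 fold of its markers of at least 1 over the other cells, neuron-like 0.75 and glial or immune 2, with at least 3 markers raised 2-fold and no other list better represented among the 10 leading genes. Clusters under 0.5 of the library's median depth were set apart. The clusters were already known when these thresholds were chosen. Tags were named from their main-population cells and summed over all kept cells.

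UMIs were summed over cells and scaled to 1000000 (CPM). Intervals were exact Poisson for levels and Clopper-Pearson for shares and for the split behind each ratio (scipy 1.17.1), and the ratio script was tested on simulated data. Backgrounds cover genes with at least 50 UMIs over the compared cells, with a count under 3 set to 3. All 10 members entered every comparison. Nearest genes were the 3 of highest correlation among those with at least 200 UMIs, and each related list is given by counts and its highest and lowest 2. Synonyms were matched through RefSeq.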

Additional observations from a re-analysis of the deposited data

How the results depend on the processing

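The count of members 2-fold higher in mitotic-like than in neuron-like cells stayed at 7 in each library under every alternative run for it (cell filters, scaling without ribosomal, mitochondrial and Malat1 UMIs, other clusterings, phase calls or clusters for classes, and means over cells). The count of members highest in the P12 mitotic-like or S-phase-like cluster was 5, 7 with at least 1000 UMIs per cell and 8 with no filter on cells. Lower members at P24-30 numbered 3, and 6 with no division by the median gene. The share of mitotic-like P12 cells with a Top2a UMI was 63.8% at 500 UMIs and 78.9% at 1000. Of 210 single-gene ratios under alternatives, 185 stayed within the counting interval and 25 moved beyond it. Of these 0 turned from a call in one direction to a call in the other. Without the division by the median gene, Smc3 (0.659), Ncaph (0.640) and Top2b (0.573) also passed 1.5-fold lower. Under an alternative the mitotic-like over neuron-like ratio of Smc3 at P12 and the age ratios of Smc2 and Ncapd2 crossed 1. Age ratios under another scaling were not counted, since division by the median gene cancels that scaling. At P24-30 the mitotic-like over neuron-like ratio of Top2a, 35.9, ran from 25.3 to 56.5, and that of Smc4, 7.21, became 9.74 without tag G14; the cause was not tested. Leaving out glial and low-depth cells, tag G14 or the 1 Top2b cell, and keeping low-depth clusters, were chosen after seeing the data. No paired analysis was possible because each age has 1 library. Depth limits the neuron-like values of Ncapg, Ncaph and Ncapd2, which rest on 8, 12 and 49 UMIs at P12.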
